A study of Homo sapiens with 8 samples.

Results

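Regions bound by p63 were examined at 8 genes of epithelial-mesenchymal transition and cell adhesion: SNAI2, SNAI1, ZEB1, ZEB2, TWIST1, VIM, CDH3 and CDH1. The members were the listed p63 regions whose midpoint lay in 1 of 7 windows fixed by position in hg19, with CDH3 and CDH1 sharing a window. They numbered 10 of the 5886 regions of SCC13 and 20 of the 13829 regions of CAL27, or 20 distinct regions among 15267. The series profiled p63 by chromatin immunoprecipitation and sequencing in SCC13 and CAL27, established human squamous cell carcinoma lines labelled wild type and untreated, with 2 p63 samples and 2 samples titled none per line. SCC13 cells were grown in serum-free keratinocyte medium with pituitary extract, EGF and added calcium, and CAL27 cells in medium with serum, so line and medium cannot be told apart. For each line, both replicates stand behind 1 deposited list that gives a chromosome, a start and an end for each region. No spread between replicates, no height and no sequencing depth could be had from these lists, so absence from a list may not mean absence of p63.

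In epithelial-mesenchymal transition, epithelial cells lose the cadherin junctions that hold them together and take up a migratory, mesenchymal state. SNAI1 and SNAI2 (zinc finger factors of the Snail family), ZEB1 and ZEB2 (zinc finger homeobox factors) and TWIST1 (a basic helix-loop-helix factor) drive it, and several of them repress CDH1 through E-box elements in its promoter. CDH1 encodes E-cadherin, the adhesion molecule of epithelial junctions, CDH3 encodes P-cadherin, which is enriched in the basal layer of the epidermis, and VIM encodes vimentin, the intermediate filament protein of mesenchymal cells. p63, the product of TP63, maintains the basal state of stratified epithelia.

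The listed p63 regions were concentrated in the SNAI2 window, which takes in a region downstream of the gene, and in the cadherin window. SCC13 had 5 regions in the SNAI2 window and 5 in the CDH3 and CDH1 window, and none in the other 5 windows. CAL27 had 10 regions at SNAI2, 7 at CDH3 and CDH1, 2 at TWIST1 and 1 at ZEB2, and none at SNAI1, ZEB1 or VIM. The windows differ in width, from 0.1 Mb at SNAI1 to 0.41 Mb at ZEB1. Over all 1.95 Mb of windows there were 5.13 regions per Mb in SCC13 and 10.3 in CAL27, beside 2.00 per Mb over the whole SCC13 list and 4.71 over the whole CAL27 list. Because the windows were chosen with earlier results of these data known, these densities are descriptions.

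**Figure D1:**
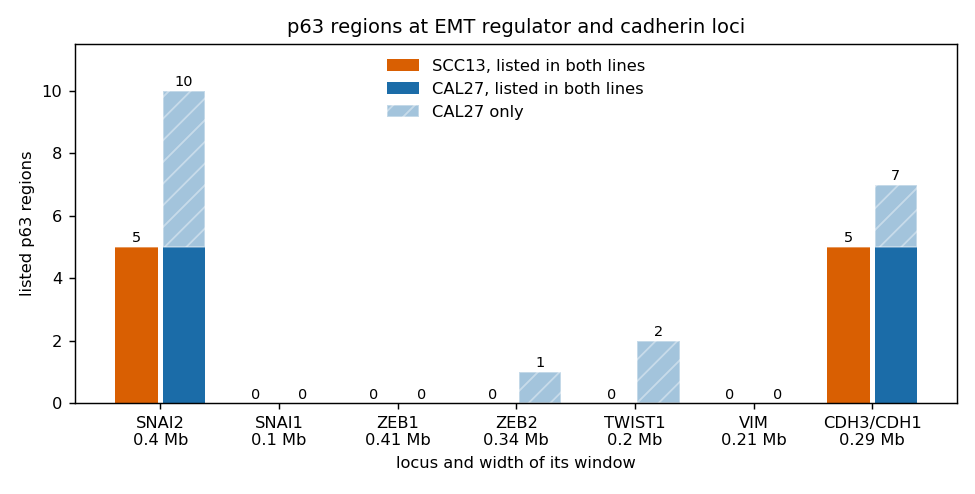
Number of listed p63 regions (y axis) in the window of each locus (x axis, with the width of the window), SCC13 left and CAL27 right, with regions listed in both lines in full colour and regions listed in CAL27 only hatched. SNAI2 holds 5 SCC13 and 10 CAL27 regions, the cadherin window 5 and 7, and SNAI1, ZEB1 and VIM hold none in either line.

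All 10 SCC13 regions at these genes were also listed in CAL27, with identical start and end positions. That is 100% of them (95% exact Clopper-Pearson interval 69.2 to 100%), beside 75.6% of the whole SCC13 list. In CAL27, 10 of the 20 regions were shared, or 50.0% (27.2 to 72.8%), beside 32.2% of the whole CAL27 list (31.4 to 33.0%). The SCC13 interval reaches below the share of its whole list, and the CAL27 interval includes that of its own. The intervals cover counting error only and treat regions as independent. Identical positions are not particular to these genes, since all 4448 regions that overlap between the whole lists have them. No overlap between the lists is partial, so a shared region carries the same edges in both lines and none particular to either. How the lists were made is not stated, and the shared percentages may depend on it. The 10 regions listed in CAL27 only were spread over SNAI2, CDH3 and CDH1, TWIST1 and ZEB2.

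At SNAI2, the window on chromosome 8 from 49.55 to 49.95 Mb also takes in the downstream region of the gene. Its 5 shared regions formed a tight row at 49608580 to 49626684, a span of 18.1 kb of which 28.1% was covered by listed regions. The first region of the row lay at 49608580 to 49609597 and was 1018 bp wide. The next, at 49611031 to 49612299, was 1269 bp wide and the widest of the row. The middle region, at 49616505 to 49617362, was 858 bp wide. The remaining pair lay at 49621214 to 49622456, with a width of 1243 bp, and at 49625984 to 49626684, with a width of 701 bp. Neighbouring regions of the row were separated by 1.43, 4.21, 3.85 and 3.53 kb.

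That row was the 1 group of 5 or more regions in the SCC13 list when midpoints within 12.5 kb were joined, and CAL27 had 13 such groups. It was the 1 group among those 13 in which every region was shared, while the other 12 held both shared and CAL27-only regions. The row is known from an earlier pass over these lists, so its size is a description.

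The 5 regions of the SNAI2 window listed in CAL27 only lay on both sides of this row and none lay within it. A region of 1516 bp at 49571119 to 49572634, the widest of all 20 members, lay 35.9 kb below the row. The next region above the row, at 49711790 to 49712434, was 645 bp wide, the narrowest of the 20, and lay 85.1 kb away. It was followed by regions at 49762074 to 49762806, of 733 bp, at 49777317 to 49778352, of 1036 bp, and at 49782461 to 49783328, of 868 bp. The last 2 were 4.11 kb apart and neither was listed in SCC13. The RefSeq gene table at hand is of another build, GRCh38, and was used for names and neighbours only; in it the protein-coding neighbours of SNAI2 are CLXN on the lower side and PPDPFL on the higher. Exons, introns and start sites of hg19 were not analysed here, so no region is assigned to an element of SNAI2. How far each region lies from SNAI2 itself was not measured.

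**Figure D2:**
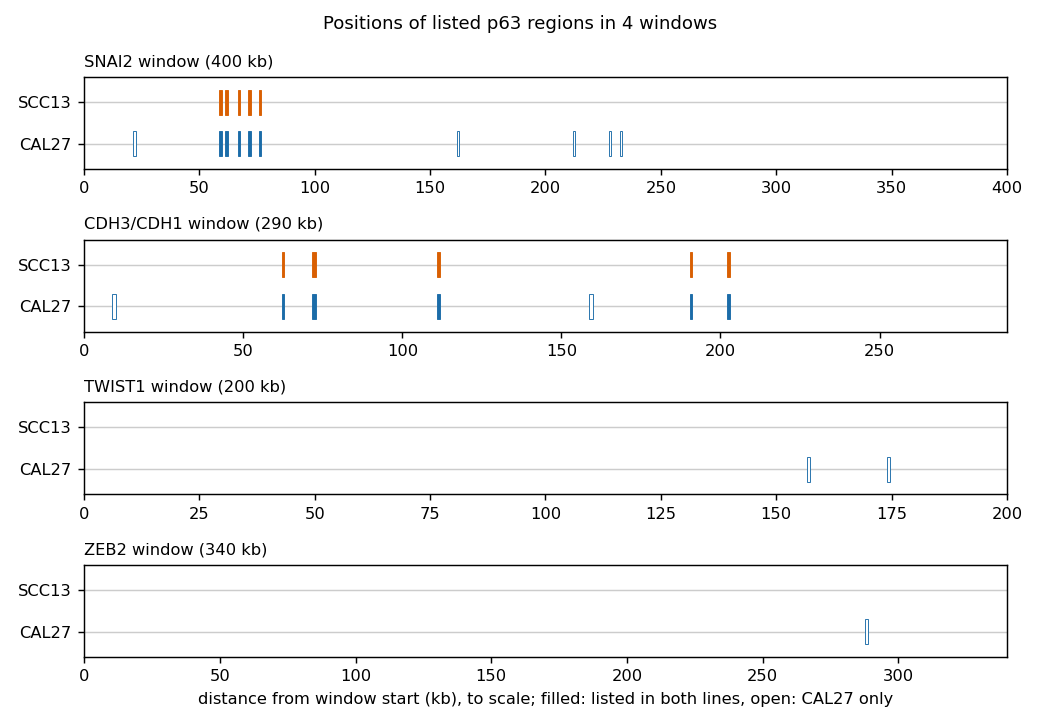
Position of each listed p63 region as distance from the start of its window (x axis, kb, to scale) in the 4 windows that hold any, SCC13 above CAL27, filled when listed in both lines and open when listed in CAL27 only. The 5 shared regions at SNAI2 stand within 18.1 kb, while the 5 shared regions of the cadherin window are spread along it, 3 and then 2 of them, with a CAL27-only region before each set.

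The cadherin window on chromosome 16, from 68.63 to 68.92 Mb, held regions spaced along its length and no comparable row. The lines shared 5 of them. The first 2, at 68692104 to 68692942 with 839 bp and at 68701752 to 68702775 with 1024 bp, were 8.81 kb apart. A region at 68740881 to 68741921, of 1041 bp, stood alone between the pairs. The second pair lay at 68820369 to 68821051, with 683 bp, and at 68832202 to 68832957, with 756 bp, and was 11.2 kb apart. Of the 1241 groups of exactly 2 regions in the whole CAL27 list, 160 (12.9%) had both regions shared, 505 (40.7%) had 1 and 576 (46.4%) had none. Both pairs of the cadherin window fell into the first class, and the close pair at SNAI2, starting at 49777317, fell into the last.

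CAL27 listed 2 further regions there that SCC13 did not, at 68638760 to 68640049, of 1290 bp, and at 68788585 to 68790006, of 1422 bp. CDH3 and CDH1 are direct neighbours in the GRCh38 table, in that order from the lower side, with ZFP90 below CDH3 and TANGO6 above CDH1. The rule gives them a common window and no region is divided between the 2 genes here.

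Widths at the cadherins, with only 2 CAL27-only regions, ran against the pattern of the whole CAL27 list. Both CAL27-only regions of that window, of 1290 and 1422 bp, were wider than all 5 shared ones, which ranged from 683 to 1041 bp. Over the whole CAL27 list, the median width was 934 bp for shared regions and 723 bp for CAL27-only regions. At SNAI2 the medians were 1018 bp for the 5 shared and 868 bp for the 5 CAL27-only regions, with ranges that overlapped. Over all members, the medians were 938 bp for the 10 shared and 952 bp for the 10 CAL27-only regions. The widest member, of 1516 bp, stood at percentile 94.4 of the CAL27 widths, and the CAL27-only regions of 1422 and 1290 bp at the cadherins stood at percentiles 92.4 and 88.3. A shared region has the same edges in both lists, so its width may not be a measurement in CAL27 alone. The lists give no height to set beside a width, and these values were not tested.

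**Figure D3:**
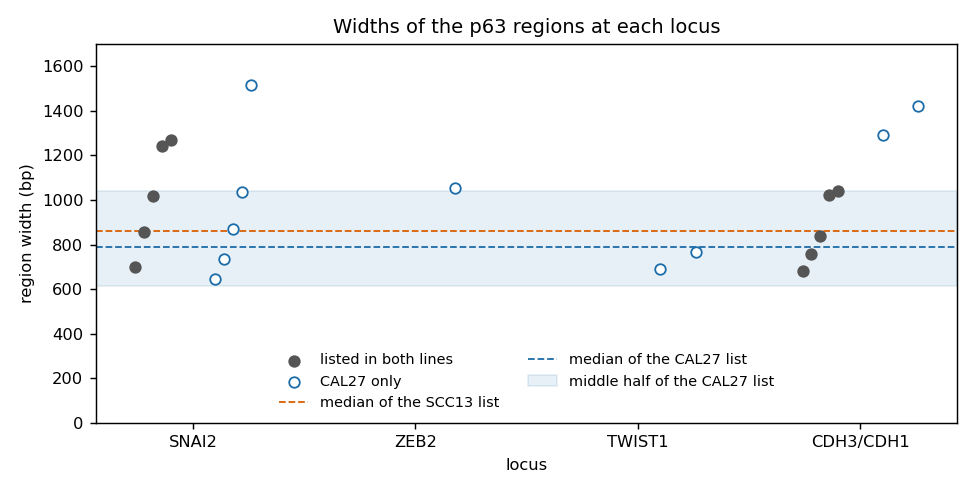
Width in bp (y axis) of each member region by locus (x axis), filled for regions listed in both lines and open for CAL27 only, with dashed lines at the median of the SCC13 list (862 bp) and of the CAL27 list (791 bp) and a band from the lower to the upper quartile of the CAL27 list. In the cadherin window both open points lie above all 5 filled points, while at SNAI2 the classes overlap.

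With every listed region counted, the SNAI2 and cadherin windows held many for their size. With neighbours within 12.5 kb counted once, SCC13 had 1 at SNAI2 and 3 at the cadherins, and CAL27 had 5 in each window. The shares of tiles below were not computed for those lower counts. Those windows were chosen with earlier results of these data known, so the shares of tiles are descriptions. When the genome was divided into tiles as wide as the SNAI2 window, 1.33% of 7344 tiles had 5 or more SCC13 regions and 0.885% had 10 or more CAL27 regions. For tiles as wide as the cadherin window, 0.553% of 10124 had 5 or more SCC13 regions and 1.72% had 7 or more CAL27 regions. The SCC13 counts were within the range found at equal CAL27 counts. Among 33 tiles with exactly 10 CAL27 regions the SCC13 count ran from 0 to 7 with a median of 4, and 9 of them (27.3%) had 5 or more. Among 84 tiles of the cadherin width with exactly 7 CAL27 regions it ran from 0 to 5 with a median of 3, and 9 (10.7%) had 5.

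**Figure D4:**
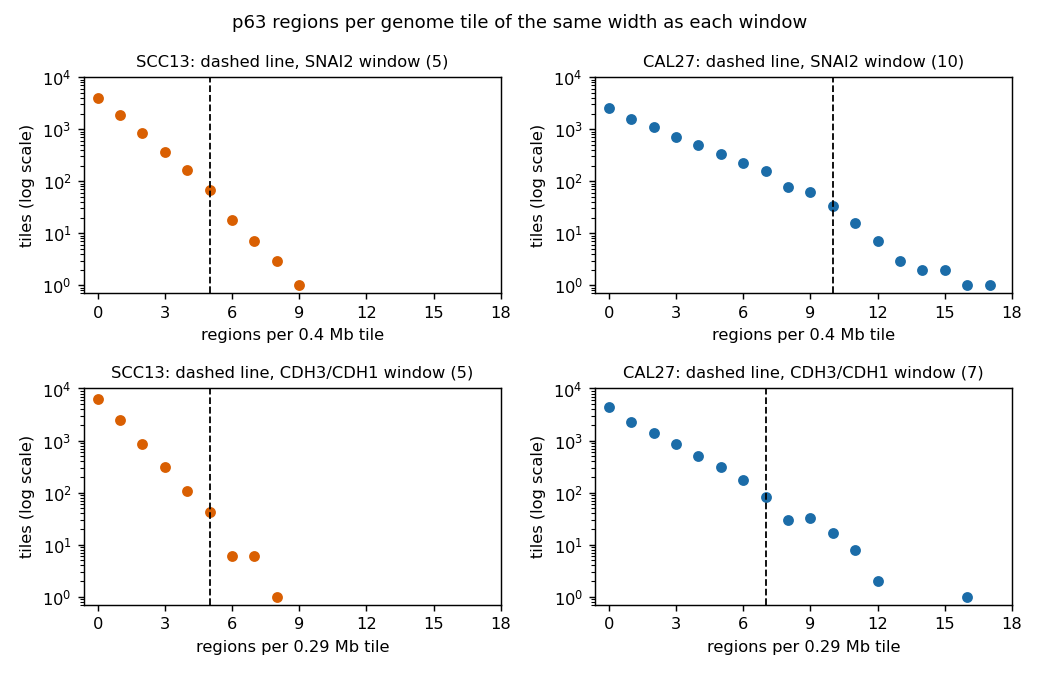
Number of genome tiles (y axis, log scale) by the number of p63 regions in the tile (x axis), for tiles as wide as the SNAI2 window (top) and the cadherin window (bottom), SCC13 left and CAL27 right. Dashed lines mark the window itself, at 5 and 10 regions for SNAI2 and at 5 and 7 for the cadherins, toward the sparse end of each distribution.

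No difference between the lines was called at either locus. The SNAI2 window held 0.0849% of the SCC13 list and 0.0723% of the CAL27 list, an odds ratio of 1.17 (95% exact interval 0.315 to 3.77; Fisher's exact test, two-sided, p = 0.781, Benjamini-Hochberg adjusted p = 1.00). The cadherin window held 0.0849% of the SCC13 list and 0.0506% of the CAL27 list, an odds ratio of 1.68 (0.42 to 6.15; Fisher's exact test, two-sided, p = 0.359, adjusted p = 1.00). The same test over the genome called 0 of 1592 windows with 5 or more regions in both lists together, a share of 0%, and 6 had an unadjusted p under 0.05. Both intervals run from well below 1 to well above it, and with neighbours within 12.5 kb counted once the ratio of shares at SNAI2 turned to 0.432. Shared regions count in both lists, so the lists are not separate samples. The test counts regions as independent, with 1 list per line, so its p-values and intervals measure no spread between replicates. A difference between the lines therefore cannot be judged from it. The other 5 windows had too few regions for this test.

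ZEB2 and TWIST1 had regions in CAL27 and none in SCC13. The ZEB2 region on chromosome 2, at 145327724 to 145328776, was 1053 bp wide. Of 1891 tiles as wide as the ZEB2 window with exactly 1 CAL27 region, 61.0% had no SCC13 region. The TWIST1 regions on chromosome 7, at 19216629 to 19217396 and at 19233979 to 19234667, were 768 and 689 bp wide and lay 16.6 kb apart. Of 1790 tiles of that width with exactly 2 CAL27 regions, 42.8% had no SCC13 region. In the GRCh38 table HDAC9 and FERD3L flank TWIST1, and QTMAN and ACVR2A flank ZEB2.

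SNAI1, ZEB1 and VIM had no listed region in either line, in surroundings that differed widely. For windows as narrow as that of SNAI1, 66.2% of tiles were empty in both lists, and the figures were 29.9% for the ZEB1 width and 47.5% for the VIM width. Around SNAI1 the lists were dense. In the 2 Mb centred on its window there were 12 SCC13 regions and 36 CAL27 regions, and 3.03% of 2 Mb tiles had as many in SCC13 and 0.404% in CAL27. The nearest CAL27 region, at 48653230 to 48654128 on chromosome 20, had its midpoint 3.68 kb outside the upper edge of the window and was not listed in SCC13. The nearest SCC13 region, 107 kb above the window at 48756392 to 48758173, was 1782 bp wide and shared.

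Around VIM the lists were nearly empty. In the 2 Mb centred on its window SCC13 had no region and CAL27 had 1, a 362 bp region at 17154619 to 17154980 on chromosome 10, 15.2 kb below the window. The stretch of chromosome 10 around VIM without an SCC13 region was 3.74 Mb long, and 0.938% of the 5863 gaps between neighbouring SCC13 regions were at least that long. The stretch without a CAL27 region was 1.76 Mb long, and 1.24% of 13806 CAL27 gaps were at least that long. Around ZEB1, on the same chromosome, the stretches were 2.12 Mb in SCC13 and 1.71 Mb in CAL27, lengths reached by 3.74% and 1.32% of gaps. Each line had 3 regions in the 2 Mb around ZEB1, against a median 2 Mb tile of 3 in SCC13 and 8 in CAL27. Gaps that cross centromeres are counted among these, and mappability was not considered.

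**Figure D5:**
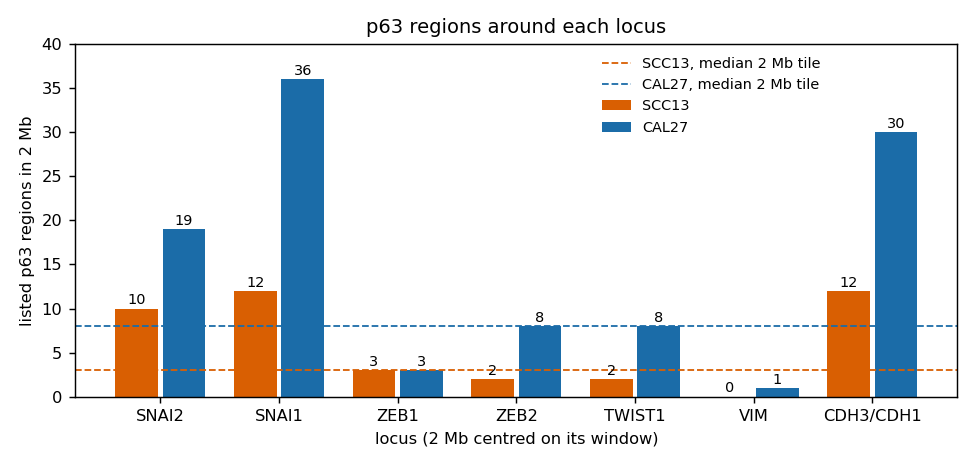
Number of listed p63 regions (y axis) in the 2 Mb centred on the window of each locus (x axis), SCC13 left and CAL27 right, with dashed lines at the median 2 Mb tile of each line (3 in SCC13, 8 in CAL27). SNAI1, with no region in its own window, has 12 SCC13 and 36 CAL27 regions around it, while VIM has 0 and 1.

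The 2 Mb around SNAI2 held 10 SCC13 and 19 CAL27 regions, so the window itself supplied 5 and 10 of them. All 10 SCC13 regions of that stretch were also listed in CAL27. Around the cadherins there were 12 SCC13 and 30 CAL27 regions, of which 11 were shared. Of 2 Mb tiles, 3.03% had as many in SCC13 and 1.48% in CAL27. For the counts around SNAI2 these shares were 6.46% in SCC13 and 11.6% in CAL27. ZEB2 and TWIST1 each had 2 SCC13 and 8 CAL27 regions in 2 Mb, near the medians of 3 and 8.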

How the data were processed

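Bowtie2, SAMtools 1.8, MACS2 and the build hg19 are named in the submitters' processing notes without their settings or how replicates were merged. Each deposited list has 3 columns (chromosome, start, end); positions are printed counted from 1. Regions were assigned by midpoint and called shared at an overlap of at least 1 bp; all 4448 overlapping regions were identical in both lists. Tiles were counted from position 0, between the first and last listed region of each chromosome. For the test between lines, windows and the 400 kb tiles not touching them were compared by Fisher's exact test at adjusted p under 0.05. The function was tested on simulated data with counts drawn separately for each line, unlike these lists, which share regions. The members, windows and lists were chosen with earlier results of these data known. Tiles of equal CAL27 count, sharing within groups, 2 Mb surroundings and gaps were added after the values were seen. All 8 genes are named. Every region is given at each locus, which is more than the rule for naming required. Motifs, sequences and other genes of the pathway had been planned for a reference of hg19 and were not analysed here. Calculations used Python 3.11.15 with scipy 1.17.1, pandas 2.3.3, numpy 2.4.6 and, for plots, matplotlib 3.10.9.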

Additional observations from a re-analysis of the deposited data

How the results depend on the processing

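No paired analysis was possible because each line has 1 list for both replicates, and leaving out a replicate was not possible either. The 10 SCC13 and 20 CAL27 regions became 4 and 13 with neighbours within 12.5 kb counted once. With regions at least as wide as their list's median, the counts were 5 and 13. The width rule can only lower a count, by an amount it does not fix. CAL27 had 33 with windows widened by 100 kb, which took SNAI1 to 4, VIM to 1 and ZEB2 to 3, while ZEB1 stayed at 0. Neither TWIST1 region of CAL27 reached its list's median width, so TWIST1 had 0 under that rule. With widened windows there were 12 SCC13 regions, the same 10 among them, and the shared percentage was again 100%. The other 3 alternatives could give no other value, since all 10 regions have identical positions in CAL27. The shared percentage of CAL27 regions ran from 36.4% (widened windows) to 50.0%, within its interval. Among tiles holding at least 1 region of either list, the SNAI2 count was reached by 1.92% in SCC13 and 1.27% in CAL27, and the cadherin count by 0.903% and 2.80%, since empty tiles no longer count; with tiles shifted to start midway the cadherin count in CAL27 was reached by 2.04%. No window was called under any of the 4 alternatives of the test between lines, with 1 to 8 windows at an unadjusted p under 0.05. The ratio of SCC13 to CAL27 shares at SNAI2, 1.17, turned to 0.432 with neighbours counted once (Fisher's exact test, adjusted p = 1.00), as the row of 5 then counts once in each list; at the cadherins it was 1.30 in place of 1.68. Without shared regions, SNAI2 had 0 SCC13 and 5 CAL27 regions (Fisher's exact test, adjusted p = 1.00) and the cadherin window had too few to test. All 5 SCC13 regions at SNAI2 are shared, so leaving shared regions out fixed that SCC13 count at 0 in advance. Depth is unknown.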
